A study of Gallus gallus with 9 samples.

Results

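The genes described here make amino acids and one-carbon units or belong to the transcriptional response that the factor ATF4 controls. They are ASNS, PSAT1, PHGDH, PSPH, SHMT2, MTHFD2, ATF4, CEBPB, TRIB3 and SESN2. The 10 genes were chosen by symbol, as a functional group, when stage differences on these arrays were already known, so their own stage differences are a description and are not tested. Every chicken probe set to which the platform annotation gave exactly 1 symbol, that of a member, was taken. This found 12 of the 37693 chicken probe sets, for 7 of the 10 genes and of 13008 named genes on the array. SHMT2, TRIB3 and SESN2 had no probe set under their symbol and are not described further.

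RNA came from olfactory placodes of chick embryos, the thickened head ectoderm that gives rise to the olfactory epithelium and to the neurons that make gonadotropin-releasing hormone. The embryos were at Hamburger and Hamilton stage (HH) 16, 18 or 20, with 3 samples described as biological replicates at each stage and 1 Affymetrix array per sample. No treatment or genotype is named for any group, and how many embryos went into a sample is not stated. The p-values given for other genes therefore weigh a stage difference against the spread between samples of the same stage.

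ATF4 is a basic leucine zipper factor whose messenger RNA is present in most cells. Its protein is made in quantity mainly when amino acid shortage, misfolded protein in the endoplasmic reticulum or another stress leads to phosphorylation of the initiation factor eIF2, and an mRNA level on an array does not measure that step. Together with partners such as CEBPB, the protein binds response elements in genes for amino acid synthesis, amino acid uptake and transfer RNA charging. In mammals ASNS, PHGDH, PSAT1, PSPH, SHMT2, MTHFD2, TRIB3 and SESN2 are among its known targets. In an embryonic epithelium the serine and one-carbon enzymes also supply growth, because they provide carbon units for nucleotide synthesis.

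Levels are given as log2(intensity + 16) after quantile normalisation, so a difference of 1 on this scale is close to 2-fold for a bright probe set and understates the change of a dim one. A value of one probe set was not set against that of another. A signal was taken as above background where it exceeded the 99th percentile of the array's probe sets for viruses. That cut was 13.87 on HH18 replicate 2 and 6.17 to 8.7 on the other arrays, so dim signals pass less often on HH18 replicate 2. The arrays differed in overall brightness. The trimmed mean signal was 162.84 on HH16 replicate 1, 117.82 on HH20 replicate 1 and 68.75 to 85.78 on the other 7 arrays. Of 11 placode markers on the array, 10 were above background on all 9 arrays, and SOX2 was on 8. Mesenchymal, vascular, blood and leukocyte markers were also detected, so RNA of other tissues was present in the samples. In such bulk samples fewer cells of a type and less RNA per cell cannot be told apart.

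The largest stage difference among the members was that of ASNS, the enzyme that makes asparagine from aspartate and glutamine. ASNS had 1 probe set, designed against several transcripts, so no other probe set could be set beside it. At HH16 the log2 levels of ASNS were 7.41, 6.46 and 6.44 in replicates 1 to 3. At HH18 they were 6.38, 6.33 and 6.68, and at HH20 they were 7.75, 7.72 and 7.65. All 3 HH20 arrays lay above all 6 earlier arrays, and HH16 replicate 1 stood between its stage and HH20. From HH18 to HH20 the difference in ASNS was 1.24 ± 0.20 (SE of the fit, n = 3 per stage), a 2.37-fold higher level. From HH16 to HH20 it was 0.94 ± 0.20, or 1.91-fold, and from HH16 to HH18 it was -0.31 ± 0.20, with overlapping arrays.

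In the intensities as deposited, ASNS read 290.5, 64.7 and 57.9 at HH16, 52.8, 61.3 and 64.7 at HH18 and 276.6, 193.4 and 167.5 at HH20. Arrays of nearly equal trimmed mean were also set side by side, as a description. HH20 replicates 2 and 3 had trimmed means of 85.78 and 80.32 and ASNS intensities of 193.4 and 167.5. HH16 replicate 2 and HH18 replicate 2 had trimmed means of 81.8 and 83.23 and ASNS intensities of 64.7 and 61.3. Between these arrays the deposited ASNS signal was higher at HH20. The brightest arrays were not equal in trimmed mean. HH16 replicate 1 read 290.5 at a trimmed mean of 162.84, and HH20 replicate 1 read 276.6 at 117.82. After normalisation their log2 levels of ASNS were 7.41 and 7.75. No array of another stage matched either in brightness, so no such pair could be formed for them.

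HH16 replicate 1, the brightest array, decided the HH16 level of ASNS. After normalisation it exceeded the mean of the other 2 HH16 arrays by 0.96 in ASNS, and 11 of the 10630 tested genes, ASNS included, had a difference at least that large. In the brightest probe set of each gene, the same array differed from the other 2 by 0.22 in ATF4, 0.16 in MTHFD2 and 0.01 in CEBPB. It differed by -0.02 in PSAT1, -0.16 in PHGDH and -0.34 in PSPH. Without HH16 replicate 1 the ASNS difference was 0.01 from HH16 to HH18 and 1.25 from HH16 to HH20. Leaving out any other array kept the HH18 to HH20 difference between 1.18 and 1.36.

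Markers of other cell types moved between the stages as well. The summed normalised intensity of 10 neuronal markers was 1385 to 1685 at HH16, 2086 to 2165 at HH18 and 2676 to 2875 at HH20, with GAP43 not above background on any array. That of 15 mesenchymal markers was 3427 to 3731, 3679 to 5021 and 4266 to 4775, with TWIST2 and ALX4 not above background. Its members went both ways, since 7 of the 13 tested were higher and 6 lower from HH16 to HH20, with a median of 0.01. As examples picked after their values were seen, COL5A2 had mean log2 levels of 7.48 at HH16 and 8.90 at HH20, and SNAI2 had 7.0 and 5.98. Vascular markers summed to 329 to 521, 480 to 845 and 688 to 763 over 13 genes, and leukocyte markers to 211 to 245, 272 to 430 and 387 to 405 over 10 genes. Of these, 5 vascular and 2 leukocyte markers were above background on all 9 arrays. CD74 was the brightest leukocyte marker, with mean log2 levels of 7.5, 7.92 and 8.15 at the 3 stages, so the leukocyte sum rests largely on it. The 5 erythrocyte markers gave 1016 to 2255, 855 to 2844 and 2260 to 2965. Lens markers (14 genes) summed to 225 to 300, 295 to 350 and 314 to 333, and those of neural crest and glia (8 genes) to 3017 to 3506, 2606 to 3008 and 2576 to 2928. These 2 lists also went both ways from HH16 to HH20. Of 11 tested lens markers 7 were higher and 4 lower (median 0.12), and of 8 of neural crest and glia 3 were higher and 5 lower (median -0.03). ROBO4 of the vascular, TAL1 of the erythrocyte, C1QA of the leukocyte and CRYAA, CRYBB3 and FOXE3 of the lens list were not above background on any array. On HH16 replicate 1, where ASNS was high, the neuronal, vascular, mesenchymal and erythrocyte sums (1385, 329, 3427 and 1016) were the lowest of their stage, and so were the placode sum (5979 against 6847 and 7187) and that of neural crest and glia (3017). The lens sum was the highest of its stage there (300 against 225 and 262), and the leukocyte sum lay between the others (239 against 211 and 245). The part of these cell types in the ASNS levels was not tested.

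**Figure D1:**
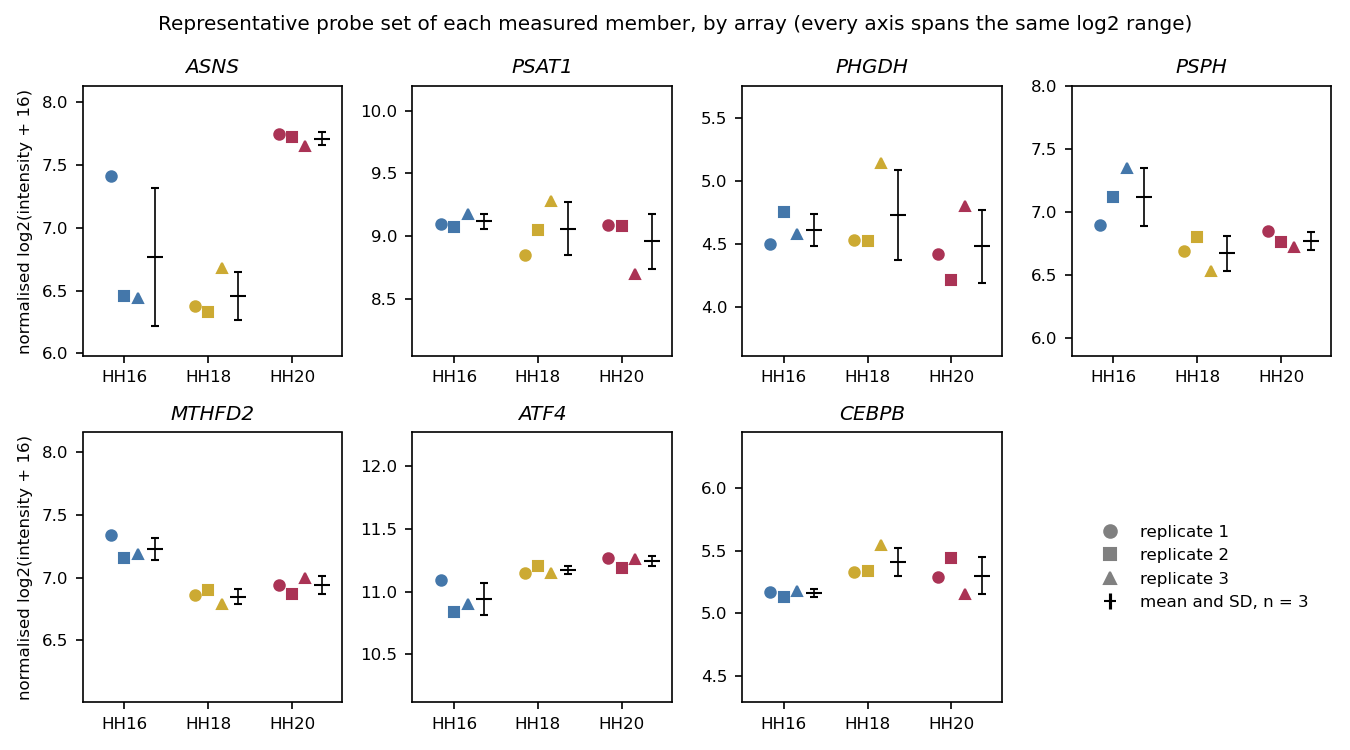
Normalised log2(intensity + 16) of the representative probe set of the 7 measured members, 1 panel per gene with axes of equal span; coloured points are single arrays at HH16, HH18 and HH20, and black bars are the mean and SD of 3 arrays. The 3 HH20 arrays of ASNS lie between 7.65 and 7.75, above all earlier arrays, while HH16 replicate 1 of ASNS lies at 7.41, and the panels of PSPH and MTHFD2 show all HH16 arrays above the later ones.

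The 3 enzymes that make serine from a glycolytic intermediate gave no common pattern. PHGDH, which catalyses the opening step, had a signal near background. Its deposited intensities were 9.5, 9.3 and 6.3 at HH16, 5.4, 9.1 and 14.3 at HH18 and 6.6, 2.5 and 10.5 at HH20. It was above background on 2, 1 and 1 of the 3 arrays of these stages. The 9.1 on HH18 replicate 2 was below the cut of that array (13.87) but above that of every other array. Its log2 levels of 4.61 ± 0.13, 4.73 ± 0.36 and 4.48 ± 0.29 (SD, n = 3) overlapped between all stages, so no stage difference of PHGDH was detectable at this signal.

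PSAT1, the transaminase of the middle step, was bright and nearly level. Its log2 levels were 9.10, 9.07 and 9.18 at HH16, 8.85, 9.05 and 9.28 at HH18 and 9.09, 9.08 and 8.70 at HH20. The stages overlapped, and the difference from HH16 to HH20 was -0.16 ± 0.12, with a 95% interval of the fit from -0.41 to 0.09. PSPH, the phosphatase of the final step, had 2 probe sets that went different ways. In the brighter one the log2 levels were 6.90, 7.12 and 7.35 at HH16, 6.69, 6.80 and 6.53 at HH18 and 6.85, 6.76 and 6.72 at HH20. All HH16 arrays lay above all later arrays in that probe set, and the differences were -0.45 ± 0.14 to HH18 and -0.35 ± 0.14 to HH20. In the dimmer one, designed against several transcripts, the difference from HH16 to HH18 was 0.30 ± 0.17 and the stages overlapped.

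MTHFD2 is a mitochondrial enzyme that oxidises one-carbon units carried on folate, and it is abundant in embryonic and dividing cells. Its brightest probe set had log2 levels of 7.34, 7.16 and 7.19 at HH16, 6.86, 6.90 and 6.79 at HH18 and 6.94, 6.87 and 7.0 at HH20. The HH16 arrays were all above the later ones, while HH18 and HH20 overlapped. The differences were -0.38 ± 0.12 from HH16 to HH18 and -0.29 ± 0.12 from HH16 to HH20. The other 2 probe sets of MTHFD2 overlapped between stages, with differences of -0.15 ± 0.15 and 0.10 ± 0.17 from HH16 to HH18. The brightest probe set is designed against several transcripts, and without such probe sets the MTHFD2 difference was 0.10 from HH16 to HH18 and 0.01 from HH16 to HH20. Averaged over all probe sets of each, the HH16 to HH18 difference was -0.14 for MTHFD2 and -0.08 for PSPH.

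Of the 2 transcription factors, ATF4 was among the bright signals of its arrays, with log2 levels of 11.09, 10.84 and 10.90 at HH16, 11.15, 11.20 and 11.15 at HH18 and 11.27, 11.19 and 11.26 at HH20. All HH16 arrays were below all later ones. The difference in ATF4 was 0.22 ± 0.07 from HH16 to HH18, 0.07 ± 0.07 from HH18 to HH20 and 0.30 ± 0.07 over the whole period, which is 1.23-fold. A second ATF4 probe set had 9.81 ± 0.17 at HH16, 10.10 ± 0.15 at HH18 and 9.95 ± 0.08 at HH20, so that its HH16 to HH20 difference of 0.14 ± 0.10 came with overlapping arrays. The remaining one was above background on 1 of the 9 arrays and did not pass the filter on dim probe sets. The direction of ATF4 from HH16 to HH18 depended on the scaling. Median centring of the arrays turned it to -0.08, and the unscaled signals gave -0.16. Under these scalings the typical gene moved by -0.23 and -0.31, and relative to it ATF4 differed by 0.15 in both. By the same scalings its HH16 to HH20 difference was 0.14 and 0.13, or 0.20 relative to the typical gene.

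CEBPB, a leucine zipper factor that pairs with ATF4, was dim, with deposited intensities of 16.1 to 36.0 over the 9 arrays. Its log2 levels were 5.17, 5.13 and 5.18 at HH16, 5.33, 5.34 and 5.54 at HH18 and 5.29, 5.44 and 5.15 at HH20. The HH18 arrays were all above the HH16 arrays, with a difference of 0.25 ± 0.14, and HH20 overlapped both.

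**Figure D2:**
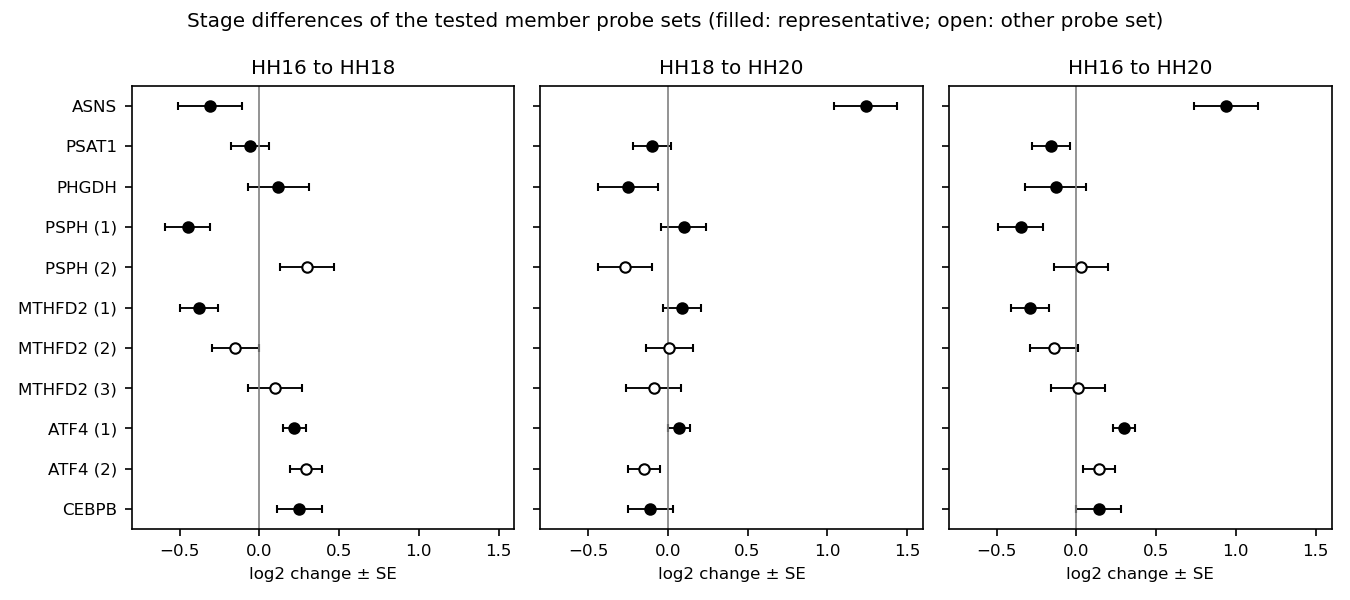
Log2 differences between stages with the standard error of the fit, for the 11 tested probe sets of the 7 measured members; filled points are the brightest probe set of a gene and open points its other probe sets. ASNS stands at 1.24 from HH18 to HH20 and 0.94 from HH16 to HH20, and the PSPH probe sets lie at -0.45 and 0.30 from HH16 to HH18.

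Set against all genes, the members did not move as a block. The median difference of the 7 members was -0.06 from HH16 to HH18, 0.07 from HH18 to HH20 and -0.13 from HH16 to HH20, against medians of -0.001, 0.001 and 0.002 over 10630 tested genes. From HH16 to HH18 the arrays of the stages did not overlap for 4 of the 7 members. The brightest probe sets of PSPH and MTHFD2 were lower, against 12.4% of all genes lower without overlap, and ATF4 and CEBPB were higher, against 12.4%. From HH18 to HH20 only ASNS of the 7 did not overlap, against 8.57% of all genes higher and 7.31% lower. From HH16 to HH20 ASNS and ATF4 were higher without overlap (17.5% of all genes) and PSPH and MTHFD2 lower (17.0%).

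The members were chosen with these comparisons known, so the number of them past limma's threshold (an adjusted p under 0.05 over all tested probe sets) is no test and nothing is read from it. ASNS was past it from HH18 to HH20, where 0.357% of all genes were called higher and 0.113% lower. ASNS and ATF4 were past it from HH16 to HH20, against 7.13% of all genes higher and 6.82% lower. None of the 7 was from HH16 to HH18, against 2.92% higher and 2.97% lower. There 3 had an unadjusted p under 0.05, and as no share of all genes was computed at that cut, nothing is read from it. The counts past the threshold moved with single arrays. ASNS was not past the threshold from HH18 to HH20 without HH18 replicate 2 (difference 1.18) or without HH20 replicate 1, 2 or 3 (1.21, 1.24 and 1.27). Without HH16 replicate 1, ATF4 (0.30) and PSPH (-0.56) were past it from HH16 to HH18, and PSPH (-0.46) also from HH16 to HH20. In that setting 946 and 2497 probe sets were past it in these 2 comparisons.

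Pearson correlations of the members over the 9 arrays, which share stage and array, ranged widely. ASNS had r = 0.57 with ATF4, 0.03 with MTHFD2, -0.21 with PSAT1 and -0.26 with PSPH. The brightest probe sets of PSPH and MTHFD2 had r = 0.73 with each other and -0.27 within stages. CEBPB and MTHFD2 had r = -0.83. Over the 9 arrays ATF4 had r = -0.6 with MTHFD2 and -0.78 with PSPH. Among deviations from the stage means ATF4 had r = 0.81 with ASNS and 0.88 with MTHFD2, so its sign with MTHFD2 differed between the measures. Within stages ASNS had r = -0.82 with PSPH, and PSAT1 had r = 0.86 with CEBPB. All these correlations use the brightest probe set of each gene. In those, HH16 replicate 1 had the highest HH16 value of ASNS, ATF4 and MTHFD2 and the lowest of PSPH. Other probe sets did not show this. On that array a second one of ATF4 was lowest (9.62 against 9.94 and 9.86), as was 1 of MTHFD2 (6.2 against 6.7 and 6.59). The remaining one of MTHFD2 lay between (5.62 against 5.49 and 5.69), and the dimmer one of PSPH was highest (5.12 against 4.75 and 4.68).

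Of 10629 other genes, the 5 whose levels over the 9 arrays were most like those of ASNS by Pearson's r were DPH3P1 (0.984), RAB7B (0.954), EGFR (0.945), GNG13 (0.943) and GNE (0.941). DPH3P1 and EGFR were above background on all 9 arrays. RAB7B, GNG13 and GNE were so on 3 of 3 arrays at HH20 but on 1, 0 and 0 at HH18. Their HH18 values thus lie near background. At HH16 each was above background on 1 array, replicate 1, with intensities of 24.2, 17.4 and 11.7 against a cut of 8.7. On HH18 replicate 2, the array with the highest background cut (13.87), their intensities were 7.8, 9.9 and 5.2. DPH3P1 had log2 levels of 8.33, 7.83 and 7.79 at HH16, so HH16 replicate 1 was high in it as in ASNS, and its deviations from the stage means had r = 0.98 with those of ASNS. For ATF4 the most alike were MICU3 (0.977), SLC25A38 (0.971), RAB5A (0.967), TPR (0.966) and CFAP69 (0.964), with HH16 to HH20 differences of 0.30 to 0.68. SLC25A38, a mitochondrial carrier of glycine, had log2 levels of 6.91, 7.24 and 7.35 at the 3 stages. For PHGDH, whose signal was near background, as were those of VWA5B2 and DNAJC6, they were VWA5B2 (0.965), SLC52A3 (0.948), DNAH3 (0.907), RANBP9 (0.893) and DNAJC6 (0.892).

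**Figure D3:**
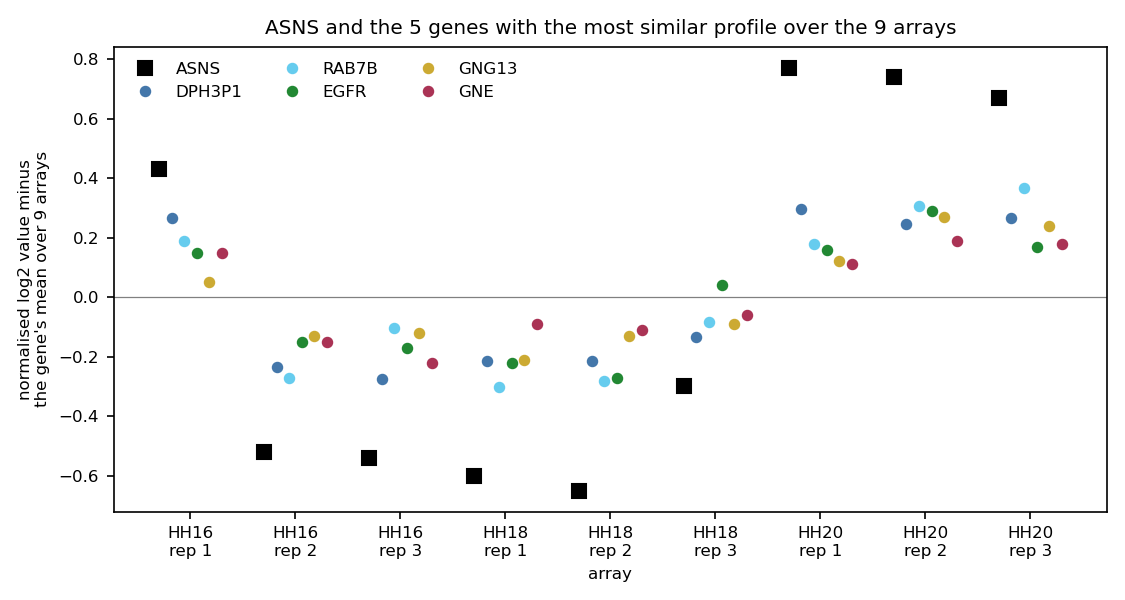
Normalised log2 value of ASNS (black squares) and of the 5 genes most like it (coloured circles) on each of the 9 arrays, each minus its own mean over the arrays. All 6 genes lie above their own mean on the HH20 arrays and on HH16 replicate 1; RAB7B, GNG13 and GNE were near background at HH18.

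Genes around the members in the same pathways were examined in 6 lists, which hold no member. The lists were chosen with earlier results of these data known, so their counts beside the shares of all genes are a description. Of 178 listed symbols, some of them older and newer names of 1 gene, 127 were on the array and 119 were tested. From HH16 to HH20, 8 rose and 14 fell. These are 22 of 119 against 7.13% of all genes higher and 6.82% lower, and the median of the 119 was -0.04. From HH16 to HH18, 2 rose and 5 fell, against 2.92% and 2.97% of all genes, with a median of -0.06. From HH18 to HH20 limma called 0 of the 119, and 9 had an unadjusted p under 0.05. With 0.357% of all genes called higher and 0.113% lower at that step, a count of 0 is near the background. Whether the later step differed from the earlier one was also tested. It did for 0 of the 119 (11 at an unadjusted p under 0.05), against 0.0188% of all genes. For ASNS the later minus the earlier difference was 1.55 ± 0.35, and none of the 7 members was past the threshold (3 at an unadjusted p under 0.05). No share of all genes was computed at an unadjusted p under 0.05, so nothing is read from the counts at that cut. The scaling of the arrays bore on all the calls of related genes. With arrays centred on the median, 3 of the 21 named HH16 to HH20 calls were kept, those of NDRG1, EIF2AK2 and SLC1A3, and on the unscaled signals 0 of the 119 genes were called.

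Among one-carbon and glycine enzymes 1 of 24 tested rose and 2 fell from HH16 to HH20 (7.13% and 6.82% of all genes), with a list median of -0.04. SLC25A32, a mitochondrial carrier of folate, fell 1.57-fold between log2 levels of 8.23 ± 0.12 and 7.58 ± 0.35 (SD, 3 arrays each, limma adjusted p = 0.0099). SFXN1, which takes serine into mitochondria, fell 1.31-fold (-0.39 ± 0.11, SE, adjusted p = 0.034). DLD, a dehydrogenase subunit shared by the glycine cleavage system and the pyruvate dehydrogenase complex, rose 1.23-fold (0.30 ± 0.09, adjusted p = 0.034). SLC25A32 had already fallen by HH18 (-0.54 ± 0.15, adjusted p = 0.05). GLDC, the decarboxylase of glycine cleavage, did not pass and had levels of 8.71 ± 0.18, 8.92 ± 0.13 and 8.84 ± 0.14. Of the other tested probe sets of SLC25A32, 1 fell (-0.91 ± 0.15, adjusted p = 0.00066) and the others had -0.04 and -0.25, while the other probe sets of DLD had -0.21, 0.07 and 0.11. The SLC25A32 probe sets that fell were designed against several transcripts. Without such probe sets its calls were lost (adjusted p = 0.79 to HH18 and 0.9 from HH16 to HH20). The HH16 to HH20 call of SLC25A32 was lost without HH20 replicate 1 (adjusted p = 0.065), and its early call without any 1 of the HH16 and HH18 arrays or HH20 replicate 3 (adjusted p = 0.054 to 0.18). That of SFXN1 was lost without HH16 replicate 2 or 3 or HH20 replicate 1 or 2 (adjusted p = 0.11 to 0.14), and that of DLD without HH16 replicate 1 or 2 or any HH20 array (adjusted p = 0.053 to 0.15).

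Of 15 other enzymes of amino acid synthesis and exchange, 0 rose and 2 fell from HH16 to HH20 (7.13% and 6.82% of all genes), with a median of -0.17. ASS1, which uses aspartate to make the precursor of arginine, fell 1.54-fold (8.91 ± 0.22 to 8.29 ± 0.08, adjusted p = 0.0053) and kept its call with each array left out but not with median centring (adjusted p = 0.098). ARG2, a mitochondrial arginase, fell 1.26-fold (-0.33 ± 0.10, adjusted p = 0.038). Its other tested probe set, a dim one, had 0 ± 0.19 (adjusted p = 0.99). The ARG2 call was lost without HH16 replicate 2 or 3, HH18 replicate 2 or HH20 replicate 1 or 2 (adjusted p = 0.05 to 0.17).

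Of 17 amino acid transporters 1 rose and 2 fell from HH16 to HH20 (7.13% and 6.82% of all genes), with a median of -0.01. SLC7A3, a carrier of arginine and lysine, fell 1.56-fold, from 9.31, 9.21 and 9.25 at HH16 through 9.05, 8.77 and 8.87 at HH18 to 8.62, 8.55 and 8.68 at HH20 (adjusted p = 0.00037). Its 3 stages did not overlap, and the HH16 to HH20 call was kept with each array left out. It was lost with median centring (adjusted p = 0.082) and with the mean of its probe sets (adjusted p = 0.17). A second SLC7A3 probe set also passed from HH16 to HH20 (-0.45 ± 0.12, adjusted p = 0.027). The other tested probe sets of SLC7A3 were dim and did not pass. SLC7A5, a carrier of large neutral amino acids and an ATF4 target in mammals, fell 1.29-fold (-0.36 ± 0.10, adjusted p = 0.03). Its other tested probe set had -0.42 ± 0.16 and did not pass (adjusted p = 0.1). SLC1A3, a glutamate and aspartate transporter of glia, rose 1.49-fold (0.58 ± 0.15, adjusted p = 0.021), from a dim 4.82 ± 0.18 to 5.40 ± 0.13. From HH16 to HH18 SLC7A3 fell (-0.36 ± 0.10, adjusted p = 0.043) and the glutamine carrier SLC38A1 rose (0.34 ± 0.09, adjusted p = 0.04). The SLC38A1 direction turned to -0.07 as deposited and to -0.18 without probe sets for several transcripts. No other tested probe set of SLC38A1 passed at that step, and the brighter ones had -0.07 ± 0.09, 0.03 ± 0.12 and -0.18 ± 0.15. With the mean of its probe sets the SLC38A1 call was lost (adjusted p = 0.73). The SLC7A3 call at that step was kept only without HH18 replicate 1, and that of SLC38A1 only without HH16 replicate 1 (adjusted p up to 0.19 and 0.14 otherwise). The HH16 to HH20 calls of SLC7A5 and SLC1A3 were lost without HH16 replicate 1 or 3 or HH20 replicate 1 or 3, and that of SLC7A5 also without HH20 replicate 2 (adjusted p = 0.062 to 0.099). SLC7A11, the cystine carrier and an ATF4 target in mammals, was above background on 0 arrays in all 4 of its probe sets.

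Of 18 aminoacyl-tRNA synthetases 0 rose and 3 fell from HH16 to HH20 (7.13% and 6.82% of all genes), with a median of -0.06. FARSA, the phenylalanyl enzyme's alpha subunit, fell 1.54-fold (8.47 ± 0.12 to 7.85 ± 0.29, adjusted p = 0.0066), HARS1, the histidyl enzyme, 1.39-fold (adjusted p = 0.012) and CARS, the cysteinyl enzyme, 1.33-fold (adjusted p = 0.033). FARSA had also fallen from HH16 to HH18 (-0.51 ± 0.14, adjusted p = 0.041). The whole-period call of FARSA was kept with each array left out and lost with median centring (adjusted p = 0.13). Its early call was lost without HH16 replicate 2 or 3, HH18 replicate 2 or 3 or HH20 replicate 1 (adjusted p = 0.059 to 0.15). The HH16 to HH20 call of HARS1 was lost without HH16 replicate 3 or HH20 replicate 1 (adjusted p = 0.055 and 0.063), and that of CARS without HH16 replicate 2 or 3 or any HH20 array (adjusted p = 0.083 to 0.14). A second CARS probe set had -0.29 ± 0.11 from HH16 to HH20 and did not pass (adjusted p = 0.098).

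In the list of the eIF2 pathway and of ATF4's partners and targets 2 of 27 rose and 2 fell from HH16 to HH20 (7.13% and 6.82% of all genes), with a median of -0.02. The riser of larger size was NDRG1, a stress-responsive differentiation gene, which rose 2.35-fold (adjusted p = 0.0013), almost all of it by HH18 (1.16 ± 0.22, adjusted p = 0.0056). Its HH18 arrays were spread (8.12, 8.58 and 9.38), and the early call was lost with median centring (adjusted p = 0.063) and as deposited (adjusted p = 0.53). To HH18 a second NDRG1 probe set had 1.24 ± 0.22 (adjusted p = 0.0041) and a dim one 0.11 ± 0.16 (adjusted p = 0.77). EIF2AK2, the eIF2 kinase that double-stranded RNA activates, rose 1.85-fold, from 5.87, 5.77 and 5.41 at HH16 through 5.93, 5.95 and 6.45 at HH18 to 6.56, 6.60 and 6.54 at HH20 (adjusted p = 0.002), and both genes kept these calls with each array left out. SESN1, a relative of SESN2 that restrains growth signalling, fell 1.38-fold (-0.47 ± 0.13, adjusted p = 0.026), and NFE2L2, the factor of the antioxidant response, fell 1.26-fold (-0.33 ± 0.10, adjusted p = 0.04). The SESN1 call was lost without HH16 replicate 3 or HH20 replicate 1 or 3 (adjusted p = 0.079 to 0.12) and that of NFE2L2 without any HH16 or HH20 array (adjusted p = 0.063 to 0.14). Second probe sets of SESN1 (-0.01 ± 0.14) and NFE2L2 (-0.16 ± 0.15) did not pass from HH16 to HH20 (adjusted p = 0.97 and 0.57). CEBPG, another partner of ATF4, had 9.21 ± 0.11, 9.23 ± 0.07 and 9.28 ± 0.09 at the 3 stages and did not pass. CHAC1, an enzyme of glutathione breakdown induced through ATF4, was dim and did not pass, with 1 HH18 array at 5.96 and the other 8 arrays at 4.54 to 5.06. ATF3, a stress-induced factor downstream of ATF4, was above background on 0 arrays. DDIT3, ATF5 and SLC3A2 had no probe set under those symbols.

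The unfolded protein response of the endoplasmic reticulum shares with the ATF4 response a kinase of eIF2. From HH16 to HH20, 4 of 19 of its tested genes rose and 3 fell, against 7.13% and 6.82% of all genes, with a median of 0.07. PDIA4, a protein disulfide isomerase, rose 1.43-fold (adjusted p = 0.022), the transcription factor XBP1 1.37-fold (adjusted p = 0.013) and the chaperone DNAJC3 1.23-fold (adjusted p = 0.03). A second tested probe set of PDIA4 did not pass (0.27 ± 0.09, adjusted p = 0.065), while those of XBP1 and DNAJC3 did (adjusted p = 0.032 and 0.0087). EDEM1, which directs misfolded glycoproteins to degradation, fell 1.49-fold (adjusted p = 0.0095), the cochaperone DNAJB11 1.39-fold (adjusted p = 0.02) and PDIA6, another disulfide isomerase, 1.32-fold (adjusted p = 0.0078). EDEM1 and PDIA6 had fallen by HH18 (-0.63 ± 0.13, adjusted p = 0.012, and -0.55 ± 0.09, adjusted p = 0.002). A second EDEM1 probe set did not pass, with -0.16 ± 0.17 to HH18 (adjusted p = 0.65) and -0.34 ± 0.17 to HH20 (adjusted p = 0.22). The whole-period calls of EDEM1 and PDIA6 were kept with each array left out and lost with median centring (adjusted p = 0.13 and 0.27). The early call of EDEM1 was lost without HH16 replicate 3 or HH18 replicate 2 (adjusted p = 0.056 and 0.055). The HH16 to HH20 calls of PDIA4, XBP1 and DNAJB11 were each lost without 3 arrays (adjusted p = 0.083 to 0.096, 0.057 to 0.073 and 0.061 to 0.12), HH20 replicate 1 among them. That of DNAJC3 was lost without HH16 replicate 1 or any HH20 array (adjusted p = 0.059 to 0.15).

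**Figure D4:**
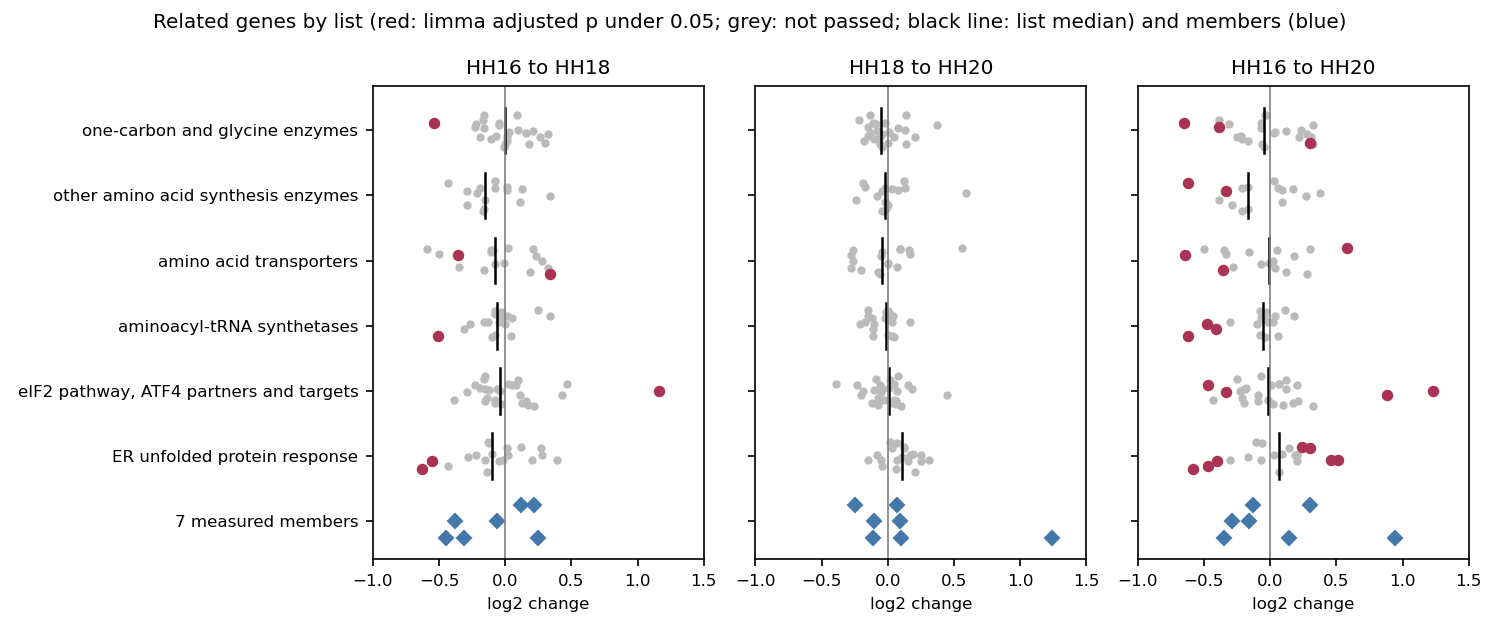
Log2 difference of each tested gene in the 6 lists of related genes, 1 panel per comparison, with genes past limma's adjusted p of 0.05 in red, others in grey, the list median as a black line and the 7 measured members as blue diamonds. No related gene is red from HH18 to HH20, where the diamond of ASNS stands at 1.24. From HH16 to HH20, 14 red points lie left of 0 and 8 right, against 6.82% of all genes called lower and 7.13% higher. With arrays centred on the median, 3 related genes were called in that comparison.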

How the data were processed

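The deposited table gives linear intensity values of 38535 probe sets on 9 arrays. MAS5 is the tool named in the submitters' processing notes, and its version and scaling are not given in the sources used here. NuGEN kits were used for amplification and biotin labelling of Trizol-extracted RNA, per the labels' protocols. Of the probe sets, 37693 were for chicken, and 689 for viruses, 96 controls and 57 reporters were left out of tests. Symbols come from the platform annotation (27166 chicken probe sets with 1 symbol, 177 with several, 10350 with none).

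The scale used is log2(intensity + 16), followed by quantile normalisation. The 24489 chicken probe sets above the 40th percentile of their array on at least 3 arrays were tested with limma 3.58.1 in R 4.3.3 (lmFit, eBayes with trend) in 1 model of the 3 stages, two-sided, and p-values were adjusted over all of them by Benjamini-Hochberg. The brightest tested probe set represents a gene. Precision is limited by the number of arrays, with a median standard error of 0.148 per stage difference.

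The members, the 6 lists of related genes and the marker lists were chosen with earlier results of these data known. Named were all members, 8 fixed genes, up to 3 called genes per list, direction and comparison, and the 5 genes most like ASNS, PHGDH and ATF4. Other scalings, filters, pseudocounts, probe set rules, array weights, a replicate block and left-out arrays were tried. Replicate numbers are not known to pair the arrays. Deviations from stage means correlated by -0.128 to 0.056 in the 9 pairs of equal number and by -0.177 to 0.135 in pairs of unequal number. Such values cannot show whether samples of equal number were handled together. No promoter or protein sequence was used here.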

Additional observations from a re-analysis of the deposited data

How the results depend on the processing

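The 7 members' stage differences moved by less than 1 residual SD of the fit in 410 of 453 values over 22 alternative settings and by more in 43. No called member changed sign. Sign changes of differences not called were not counted, and that of ATF4 from HH16 to HH18 was among those that turned (-0.08 with median centring). Of the calls of related genes, 2 turned, both of SLC38A1 from HH16 to HH18 (-0.07 as deposited, -0.18 without probe sets for several transcripts). Scaling mattered most. As deposited, members called were 0 from HH18 to HH20 and 0 from HH16 to HH20, related genes 0 from HH16 to HH18 and 0 from HH16 to HH20, and all probe sets 44, 10 and 176 in the 3 comparisons, against 1111, 88 and 2673. With arrays centred on their medians, 0 members, 3 related genes and 805 probe sets were called from HH16 to HH20, and 596 probe sets from HH16 to HH18. Of 21 calls of named related genes over the whole period, 3 were kept with that scaling and 7 with each array left out. Relative to the median of all genes, which moved by up to -0.31 with scaling, ASNS kept 1.24 to 1.31 from HH18 to HH20 and 0.94 to 0.97 from HH16 to HH20. With a common trimmed mean 1 member and 2474 probe sets were called from HH16 to HH20, and 15 probe sets differed between the steps, against 8. The share of calls that were higher was 50.9%, 70.5% and 53.2% in the 3 comparisons, 4.55%, 100% and 64.2% as deposited, and 10.2% and 96.7% in the 2 steps with median centring; in the later step it was 82.8% with a common trimmed mean and 80.9% with a pseudocount of 64.

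Without a filter on dim probe sets, 3 related genes and 641 probe sets were called from HH16 to HH18, 32 probe sets from HH18 to HH20 and 0 between the steps, and with a filter at the 60th percentile 5 between the steps. As deposited, 0 probe sets differed between the steps. The replicate block gave 3 related genes from HH16 to HH18 against 7, and changed no other count by over 1.5 times. Array weights gave 4 related genes from HH16 to HH18, 142 probe sets from HH18 to HH20 and 3 between the steps. Without probe sets for several transcripts, which include the only one of ASNS, 0 members and 77 probe sets were called from HH18 to HH20. From HH16 to HH20, 1 member and 1766 probe sets were. Averaging all probe sets of each gene, 1 member (ATF4) was among 759 calls from HH16 to HH18. A fit to the 2 stages alone called 577 probe sets at that step. With 1 array left out, members called were 0 to 2, 0 to 1 and 2 to 3 in the 3 comparisons, related genes 2 to 10, 0 and 7 to 28, and probe sets 403 to 1003, 23 to 129 and 1417 to 3206, and 0 to 33 between the steps. Chosen after seeing the data, leaving out HH16 replicate 1 and HH18 replicate 2 together gave 0, 1 and 3 members, 2, 0 and 18 related genes, and 399, 80, 2542 and 0 probe sets, with ASNS at 1.17 from HH18 to HH20. The cause of these shifts was not tested.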
